A study of Oncorhynchus mykiss with 28 samples.

Results

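Eggs of hormonally induced rainbow trout females that developed poorly were compared with eggs of hormonally induced females that developed well. The 10 females were chosen by the percentage of normal alevins in the sample labels, and no array value was used. The 5 females with under 50% normal alevins at yolk-sac resorption (YSR) are called HI poor (HI-1 to HI-5), and the 5 with 80% or more are called HI good (HI-7 to HI-11). They are 10 of the 28 females analysed in the series. The other arrays came from females whose ovulation was shifted by photoperiod manipulation (PM; 9 PM poor, 1 between the limits and 4 PM good by the same limits) and from 4 naturally ovulating (N) females. One further HI sample was not analysed here.

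All 10 HI females were of an autumn-spawning strain, were sampled in 2004 and received an injection of a GnRH analog, an agonist of the hypothalamic hormone that triggers gonadotropin release and, through it, ovulation. No group received a vehicle injection in the labels or methods. Unfertilized eggs were stripped 5 days after ovulation was detected, and part of each spawn was fertilized with pooled sperm to score its development. The females differed in quality without any further treatment. Each array held RNA pooled from many unfertilized eggs of 1 female, so that the replicate is the female. Female ages were not given in the sources used here.

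An unfertilized fish egg carries the mRNAs that its mother laid down during oogenesis. The embryonic genome of fish stays largely silent through the first cleavages, and these maternal mRNAs, with the proteins and yolk stored beside them, serve the embryo until its own transcription starts. The eyed stage, at which the pigmented eye can be seen through the shell, and yolk-sac resorption, at which the alevin has used up its yolk, are the usual check points of egg quality in salmonids.

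The HI poor females did not fail at the same stage. HI-1 had 3% eyed embryos and HI-2 had 47%, so that their loss came largely before the eyed stage. HI-3, HI-4 and HI-5 had 89, 88 and 77% eyed embryos and only 28.5, 35.6 and 39.8% normal alevins, which places most of their loss or malformation after that stage. The malformed percentage was 55.6 in HI-3 and 40.9 in HI-4, against 17.4 in HI-2, 3.2 in HI-5 and 0 in HI-1. Among the HI good females, eyed embryos ran from 91 to 100% and malformations from 0 to 8.1%. What the malformed percentage is a share of was not given in the sources used here. It exceeded the percentage of eyed embryos in PM-2, so it cannot be read as a share of the initial eggs and cannot be added to the percentages of eyed embryos or normal alevins.

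Eyed embryos averaged 60.8 ± 36.5% in HI poor and 95.6 ± 3.65% in HI good females (SD, n = 5 each), a difference of -34.8 points, and the groups did not overlap. Malformations averaged 23.4 ± 24.2% in HI poor and 2.64 ± 3.19% in HI good females, a difference of 20.8 points, and the groups overlapped. Both measures come from the spawns scored for normal alevins and are bound up with the percentage that chose the females, so they are a description and were not tested.

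**Figure D1:**
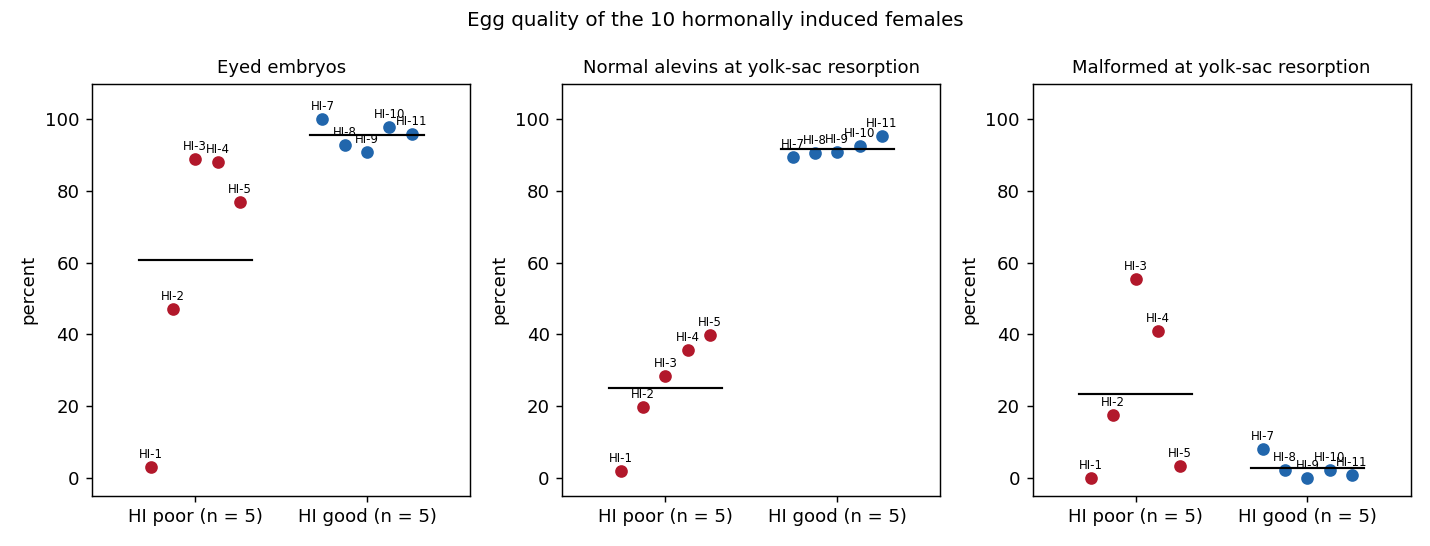
Percentage of eyed embryos, of normal alevins at yolk-sac resorption and of malformations at yolk-sac resorption for each HI poor and HI good female (points, with the sample number; bars, group means). HI-1 and HI-2 lie at 3 and 47% eyed embryos, below the other 3 HI poor females at 77 to 89%.

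The arrays were nylon membranes spotted with rainbow trout cDNA clones and hybridised with radioactively labelled cDNA. The deposited signal of a clone is a spot intensity that had been adjusted to the DNA in the spot and expressed relative to the array median. A log2 signal of 0 is thus the median clone. A value of 0 (6.9% of clone values on these arrays) was taken as missing. Between 8229 and 8547 of 9023 clones had a signal above 0, with a mean of 8396 on HI poor and 8404 on HI good arrays (exact permutation p = 0.944, adjusted p = 0.944). The interquartile range of log2 signal was 1.47 ± 0.065 in HI poor and 1.45 ± 0.078 in HI good arrays (SD, n = 5 each; exact permutation p = 0.667, adjusted p = 0.944). The arrays correlated with r between 0.944 and 0.960 (median 0.953) within HI poor, 0.949 and 0.969 (median 0.961) within HI good, and 0.939 and 0.972 (median 0.955) between the groups, across clones. An HI poor array was therefore about as close to an HI good array as to another HI poor array. The number of arrays limits the precision.

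No clone was called different between poor and good HI eggs. Of the 8376 clones with at least 3 values in each group, limma with Benjamini-Hochberg adjustment called 0 (0%) at an adjusted p under 0.05, and the smallest adjusted p was 0.996. At an unadjusted p under 0.05 there were 324 clones, 3.87% of those tested, where the level of that threshold alone corresponds to 419. Of these, 102 (1.22%) were higher and 222 (2.65%) lower in HI poor eggs. The difference HI poor minus HI good had a median of -0.02 on the log2 scale over all clones and ran from -0.85 to 0.79, so that 0 clones differed by more than 1.

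The data also bound how large a difference in array signal could be. The median standard error of a clone's difference was 0.137 on the log2 scale and the median 95% confidence interval reached 0.288 to each side. For 99.4% of clones the whole interval lay within a log2 difference of 1 in either direction, and for 81.3% within 0.5. These are intervals for single clones and are not adjusted for their number. They bound the signal of a clone and not the abundance of its mRNA, and how the signal scales with abundance was not tested.

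The direction of the small differences depended on the arrays and on the scaling. Among the 324 clones, 31.5% were higher in HI poor eggs. After quantile normalization, 153 were higher and 169 lower (47.5% higher), and the median of all clones was 0.00. Without HI-1 there were 192 clones, 90 higher and 102 lower. Without both HI-1 and HI-2, the females that lost most embryos before the eyed stage, there were 133 higher and 111 lower. With only these 2 females as the poor group, chosen after the data were examined, there were 202 higher and 342 lower, and still 0 called at an adjusted p under 0.05 (smallest 0.099).

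**Figure D2:**
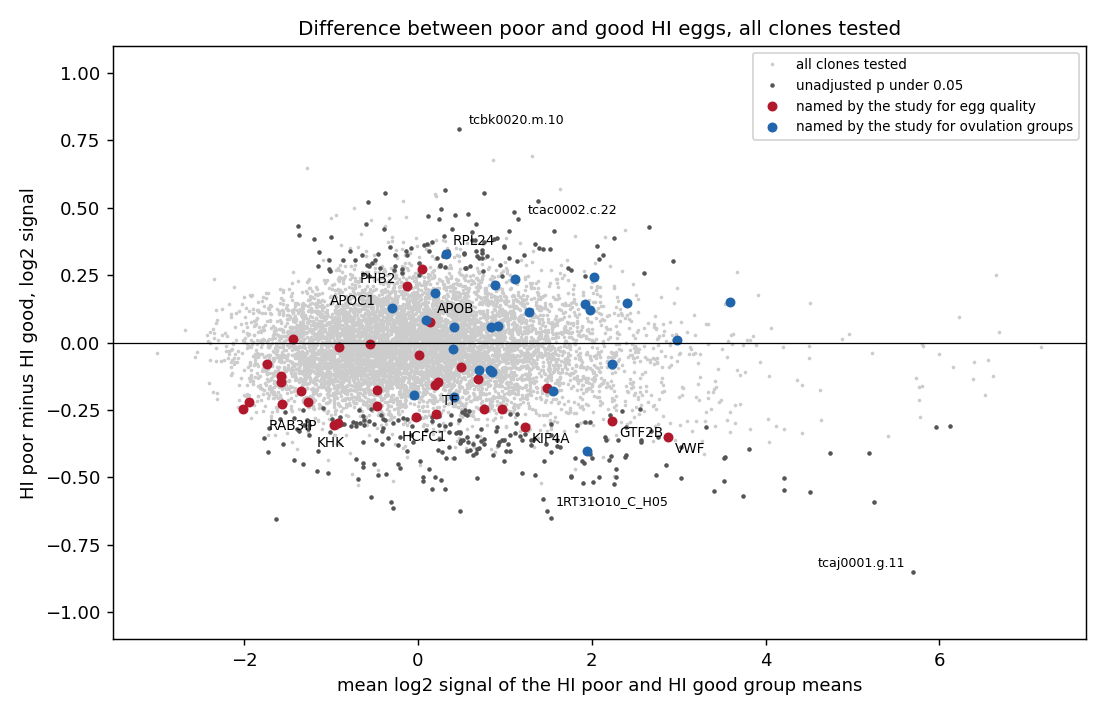
Difference in log2 signal, HI poor minus HI good, of each of the 8376 clones tested against its mean log2 signal. Dark points are the 324 clones at an unadjusted p under 0.05, red and blue points are clones that the study names, and differences ran from -0.85 to 0.79.

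The clones with the smallest p have no gene name in the sources used here and are given by clone name. They were picked for these differences, so their values are a description, and the adjusted p of each was 0.996 from limma. Groups that do not overlap were seen for 40 of the 8021 clones with values on all 10 arrays (0.499%), 12 with HI poor above HI good and 28 below.

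Clone 1RT31O10_C_H05 had log2 signals of 0.98, 1.14, 1.21, 1.23 and 1.28 in HI poor eggs (HI-1 to HI-5) and 1.54, 1.99, 1.90, 1.98 and 1.55 in HI good eggs (HI-7 to HI-11). Every HI poor female was below every HI good female, and the difference was -0.62 (standard error 0.128, 95% confidence interval -0.89 to -0.35), or 0.649-fold. Clone tcaj0001.g.11, a strongly hybridising spot, had 4.71, 5.45, 5.57, 4.77 and 5.85 in HI poor eggs and 5.55, 6.40, 5.80, 6.47 and 6.38 in HI good eggs. HI-1 and HI-4 were lowest, HI-7 and HI-9 lay among the HI poor values, and the difference was -0.85 (standard error 0.221, 95% confidence interval -1.31 to -0.39).

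In the other direction, clone tcbk0020.m.10 had 0.51, 0.85, 0.96, 1.09 and 0.96 in HI poor eggs and -0.11, -0.38, 0.13, 0.79 and -0.03 in HI good eggs. HI-10 stood above the other HI good females and HI-1 below the other HI poor females, and only these 2 crossed. Its difference was 0.79 (standard error 0.178, 95% confidence interval 0.42 to 1.17), or 1.73-fold. Without HI-10 it was 0.97 with an adjusted p of 0.0407, the only call made at an adjusted p under 0.05 when 1 array was left out. Under all the alternatives its adjusted p ran from 0.0407 to 1.00. Clone tcac0002.c.22 had 1.38, 1.10, 1.56, 1.34 and 1.53 in HI poor eggs and 1.06, 0.94, 0.93, 0.97 and 0.73 in HI good eggs. Its groups did not overlap, although HI-2 and HI-7 were close, and the difference was 0.46 (standard error 0.122, 95% confidence interval 0.20 to 0.71).

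Clone 1RT148E22_C_C11, singled out after its values were seen, could not be tested because its signal was 0 on all 5 HI poor arrays. On the HI good arrays it had log2 signals of 1.27, 1.34, 1.69 and 1.48 in HI-7, HI-8, HI-9 and HI-11 and a signal of 0 in HI-10. It was above 0 on 7 of 9 PM poor, 2 of 4 PM good and 2 of 4 N arrays, so zeros were not particular to HI poor eggs.

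The study names 57 clones in all, 26 for differences between ovulation groups and 31 for a link with egg quality, and 56 of them could be tested. None passed an adjusted p under 0.05. In HI poor eggs 20 of the 56 were higher and 36 lower (64.3% lower, against 56.1% of all clones tested), with a median difference of -0.10 against -0.02 over all clones. The 7 named clones at an unadjusted p under 0.05 in limma (12.5% of 56, against 3.87% of all clones tested) were all lower in HI poor eggs. All 7 were from the egg quality list, where they made up 22.6%. Of its 31 clones 27 were lower (87.1%), with a median of -0.17. The study chose that list on these samples, among others, so its direction is not independent evidence. Of the 25 tested clones of the ovulation list, 16 were higher and 9 lower, the median was 0.06, and 0 had an unadjusted p under 0.05 in limma. When each array was left out in turn, the 7 clones were at an unadjusted p under 0.05 in 4 to 7 of the 10 fits each. None of the 7 separated the groups without overlap. The adjusted p from limma was at least 0.996 for every named clone, and outside these 7 the 95% confidence interval of the difference included 0. The study gave its egg quality list at an elevated false discovery rate and treated those clones as candidates to be checked by real-time PCR. Of the clones of that list measured by PCR on the same RNA samples, only PHB2 was significantly correlated with quality. KHK, HCFC1 and RAB3IP were measured without such a correlation. VWF, KIF4A, TF and GTF2B were not reported by PCR.

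Adhesion and extracellular matrix clones were lower in HI poor eggs in 4 of 4 cases, with a median of -0.21 on the log2 scale and 1 at an unadjusted p under 0.05. That clone, VWF, matches von Willebrand factor, a large plasma and endothelial glycoprotein that carries platelets to collagen in mammals. VWF had 2.42, 2.80, 2.79, 2.67 and 2.80 in HI poor eggs and 2.58, 3.38, 3.09, 3.19 and 2.98 in HI good eggs. HI-7 lay within the HI poor range, and the other 4 HI good females lay above all HI poor females. The difference was -0.35 (standard error 0.144, 95% confidence interval -0.65 to -0.05), or 0.785-fold. LAMB2, a laminin chain of basement membranes, PKP1, a plaque protein of desmosomes, and LRTM1, a membrane protein with leucine-rich repeats, had differences of -0.23, -0.20 and -0.15.

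Cytoskeleton and cell division clones were lower in 5 of 5 tested cases, with a median of -0.09 and 1 at an unadjusted p under 0.05. KIF4A is a kinesin that binds chromosomes and organises the central spindle. It had 0.88, 0.81, 1.42, 1.24 and 1.02 in HI poor eggs and 1.23, 1.65, 1.29, 1.43 and 1.32 in HI good eggs. HI-1, HI-2 and HI-5 were below every HI good female, while HI-3 and HI-4 lay among them. The difference was -0.31 (standard error 0.137, 95% confidence interval -0.60 to -0.03). NEK1, a kinase of the NIMA family that acts at centrosomes and cilia, had a difference of -0.16 (95% confidence interval -0.46 to 0.14).

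Growth factor and signalling clones were lower in 5 of 7 cases, with a median of -0.08 and 0 at an unadjusted p under 0.05 in limma. The ligand BMP7, a bone morphogenetic protein that patterns the ventral side of the zebrafish embryo, had the smallest p. It had -0.81, -0.49, -0.46, -0.55 and -0.63 in HI poor eggs and -0.63, -0.01, -0.40, -0.26 and -0.46 in HI good eggs. HI-8 was highest and HI-1 lowest, the groups overlapped, and the difference was -0.23 (standard error 0.131, 95% confidence interval -0.51 to 0.04). TGFBR2, the type II receptor of TGF-beta, had a difference of -0.25 (95% confidence interval -0.63 to 0.14), and DUSP24, a dual specificity phosphatase, -0.22 (95% confidence interval -0.54 to 0.10).

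Mitochondrial and metabolic clones were lower in 6 of 8 cases, with a median of -0.14 and 1 at an unadjusted p under 0.05. KHK, the ketohexokinase that phosphorylates fructose, had -1.26, -0.85, -0.97, -1.08 and -1.18 in HI poor eggs and -0.65, -0.86, -0.66, -1.07 and -0.59 in HI good eggs. HI-7, HI-9 and HI-11 were above all HI poor females, and HI-10 was level with the middle of them. The difference was -0.30 (standard error 0.128, 95% confidence interval -0.57 to -0.03). AGM1, an enzyme of UDP-N-acetylglucosamine synthesis, PYC, the pyruvate carboxylase that replenishes oxaloacetate, and HSPA9B, the HSP70 chaperone of the mitochondrial matrix, had differences of -0.18, -0.20 and -0.18. PYC had values on only 3 HI poor arrays. With missing values set at the array minimum its difference was -1.68 (adjusted p = 0.9965 from limma), so its size depended on how missing values were handled. DDAH2, an enzyme of the family that degrades methylated arginines, had 0.11 (95% confidence interval -0.15 to 0.37).

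PHB2 is prohibitin 2, a scaffold of the inner mitochondrial membrane that also acts as a transcriptional corepressor in mammals. The study links it to egg quality by array and by real-time PCR, with more PHB2 mRNA in eggs of low quality. Its slope on quality over all females is known, so its values here are given as a description. PHB2 had -0.05, -0.04, -0.09, -0.03 and 0.10 in HI poor eggs and -0.24, -0.12, -0.30, -0.42 and -0.08 in HI good eggs. The HI poor females lay close together at the upper end, 3 HI good females lay well below them, HI-8 lay just below, and HI-11 lay among them. PHB2 averaged -0.02 ± 0.07 in HI poor and -0.23 ± 0.14 in HI good eggs (SD, n = 5 each), a difference of 0.21 (95% confidence interval -0.03 to 0.44), or 1.16-fold.

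Clones of RNA processing and translation were higher in 5 of 6 cases, with a median of 0.10 and 0 at an unadjusted p under 0.05 in limma. RPL24, part of the large subunit of the ribosome, had 0.80, 0.13, 0.70, 0.60 and 0.18 in HI poor eggs and 0.32, 0.48, 0.11, -0.34 and 0.20 in HI good eggs. HI-1, HI-3 and HI-4 were above all HI good females, and HI-2 and HI-5 lay among them. The difference was 0.33 (95% confidence interval -0.02 to 0.68). RL10, another protein of the large subunit, had 0.24 (95% confidence interval -0.12 to 0.59). DCPS, which hydrolyses the cap left after mRNA decay, was the 1 clone of this list with a negative difference, -0.12 (95% confidence interval -0.37 to 0.12). DCPS was also the only 1 from the study's egg quality list, while the 5 higher clones were all from its ovulation list.

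Transcription and chromatin clones were lower in 6 of 8 cases, with a median of -0.21 and 2 at an unadjusted p under 0.05. HCFC1, a coregulator of cell cycle genes, had -0.28, -0.05, -0.13, -0.38 and 0.06 in HI poor eggs and -0.17, 0.16, 0.05, 0.29 and 0.25 in HI good eggs. HI-5 was the highest HI poor female and HI-7 the lowest HI good female, and the remaining females were apart. The difference was -0.28 (standard error 0.128, 95% confidence interval -0.55 to -0.01). GTF2B, the general factor TFIIB that positions RNA polymerase II, had 1.91, 1.99, 2.41, 2.15 and 1.97 in HI poor eggs and 2.15, 2.70, 2.44, 2.26 and 2.34 in HI good eggs. Only HI-3 among the HI poor females lay inside the HI good range, and the difference was -0.29 (standard error 0.134, 95% confidence interval -0.57 to -0.01). CASZ1 and ZNF261, both zinc finger proteins, and TLE1, a Groucho corepressor, had differences of -0.25, -0.24 and -0.17. GMCL1, whose fly homolog germ cell-less is needed for germ cell formation, and ING1, a reader of methylated histone H3, had 0.27 and 0.24.

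Clones of protein degradation and membrane traffic were divided, with 4 of 7 higher, a median of 0.06 and 1 at an unadjusted p under 0.05. RAB3IP, an exchange factor that activates Rab8, had -1.49, -0.99, -0.87, -1.11 and -1.13 in HI poor eggs and -0.90, -0.49, -0.81, -0.89 and -0.99 in HI good eggs. HI-1 was lowest by a wide margin, HI-3 lay within the HI good range, and the difference was -0.31 (standard error 0.137, 95% confidence interval -0.59 to -0.02). CUL5, a scaffold of ubiquitin ligases, and ALG2, a mannosyltransferase of N-glycan assembly, had -0.17 and -0.13, while NTAN1, which deamidates N-terminal asparagines for degradation, had 0.08 (95% confidence interval -0.22 to 0.39). ALG2 had values on only 4 HI poor arrays, and its difference was -0.85 with missing values set at the array minimum (adjusted p = 0.9965 from limma). The 4 higher clones of this role were all from the ovulation list and the lower ones all from the egg quality list.

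Clones of lipid handling and plasma proteins were higher in 3 of 6 cases, with a median of 0.03 and 1 at an unadjusted p under 0.05. TF, transferrin, the iron carrier of plasma, had 0.19, 0.01, 0.28, -0.07 and -0.02 in HI poor eggs and 0.47, 0.45, 0.40, 0.19 and 0.21 in HI good eggs. HI-7, HI-8 and HI-9 were above all HI poor females, HI-1 was just below and HI-3 above the remaining 2 HI good females. The difference was -0.27 (standard error 0.119, 95% confidence interval -0.52 to -0.02). OSBPL5, an oxysterol-binding protein, had 0.18 (95% confidence interval -0.15 to 0.51) and PGH2, an enzyme of prostaglandin synthesis, -0.10 (95% confidence interval -0.37 to 0.17).

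APOC1, an apolipoprotein of plasma lipoproteins, had the largest standard error of the named clones shown by array. It had -0.91, 0.64, 0.38, -0.47 and -0.84 in HI poor eggs and -0.30, 0.06, -0.40, -0.63 and -0.57 in HI good eggs. HI-2 and HI-3 were the highest of all 10 females and HI-1 and HI-5 the lowest, so that the HI poor females enclosed the HI good females. APOC1 averaged -0.24 ± 0.71 in HI poor and -0.37 ± 0.27 in HI good eggs (SD, n = 5 each), and the difference was 0.13 (95% confidence interval -0.40 to 0.65). Its sign turned to -0.09 without HI-2 and to -0.03 without HI-3.

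The labelled material could be checked against few cell type markers, because the files name clones and not genes. Of lists for oocytes, follicle cells, red blood cells, and liver and plasma, only APOB and TF of the last were named. Both had a signal above 0 on all 10 arrays, but so did 8021 of all 9023 clones, so this tells nothing about cell types. Follicle cells left on the eggs could not be measured with named clones, so their part in these differences was not tested. In RNA of whole eggs, fewer cells of a type and less RNA per cell cannot be told apart.

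Clones not placed in a role list included BX082249, BX878405 and CF188, a homolog of a rat protein of unknown role. BX082249 matches a hypothetical yeast protein, and the study also lists it as YG1W, with import into the mitochondrial matrix as its process. BX082249 had a difference of -0.40 (standard error 0.251, 95% confidence interval -0.93 to 0.13). BX878405 had 0.21 (95% confidence interval -0.22 to 0.65). CF188 had -1.65, -1.21, -1.26, -1.23 and -1.51 in HI poor eggs and -1.23, -1.02, -1.29, -1.24 and -0.97 in HI good eggs. HI-1 and HI-5 were lowest and HI-8 and HI-11 highest, with the other 6 females close together, and the difference was -0.22 (standard error 0.126, 95% confidence interval -0.49 to 0.04).

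**Figure D3:**
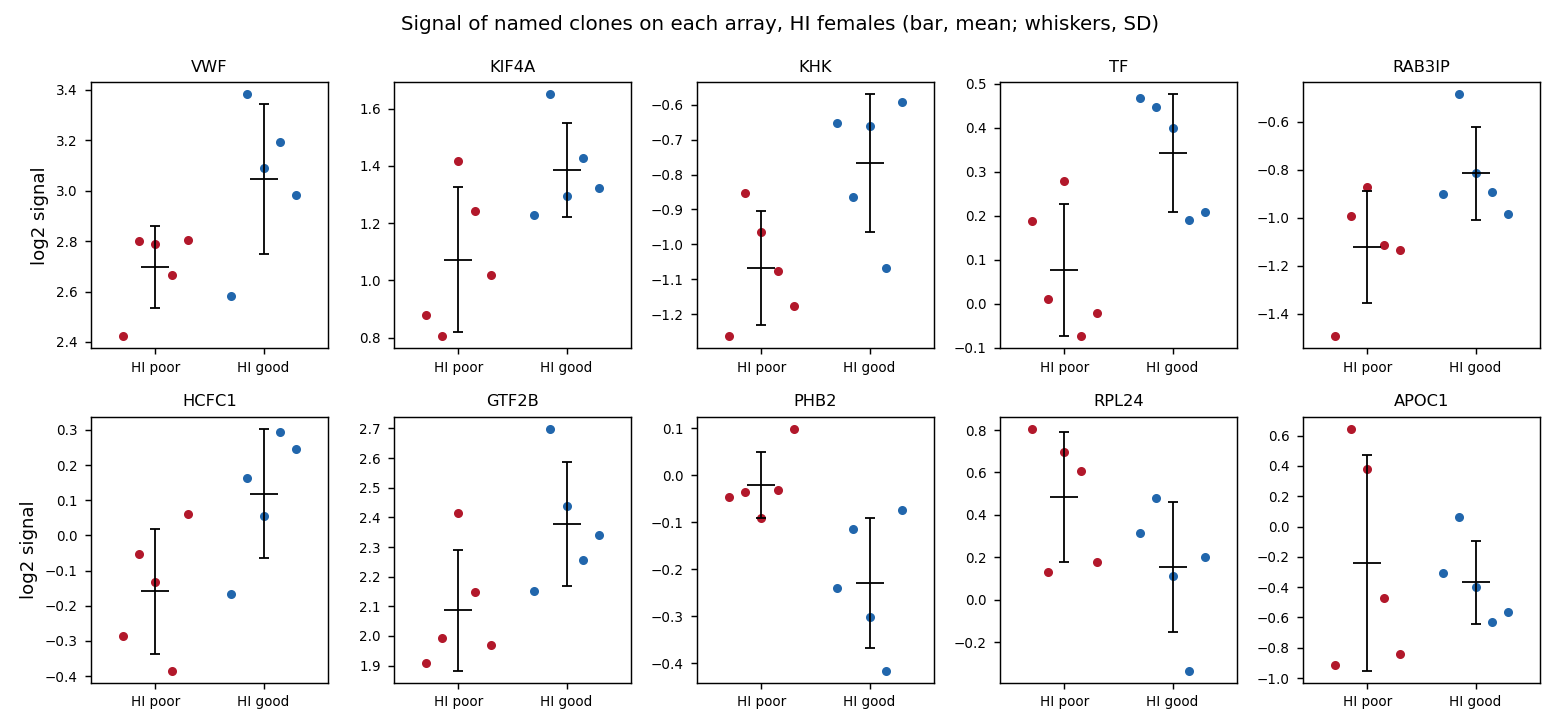
Log2 signal of 10 named clones on each HI poor array (red, HI-1 to HI-5 from left to right) and each HI good array (blue, HI-7 to HI-11), with mean and SD. VWF, KIF4A, KHK, TF, RAB3IP, HCFC1 and GTF2B had means lower in HI poor eggs by 0.27 to 0.35, PHB2 and RPL24 had means higher by 0.21 and 0.33, and the groups of each of the 10 clones overlap.

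The same limits of normal alevins divide the PM females, whose eggs were used to ask whether quality went with the same transcripts after another control of ovulation. The poor groups overlapped in the percentage of eyed embryos but differed in their mix of stages of loss. PM-1 to PM-7 all had a lower percentage of eyed embryos than HI-3, HI-4 and HI-5. In contrast, PM-8 and PM-9 were above HI-5, and HI-1 and HI-2 had only 3 and 47%. HI minus PM therefore also compares stages of loss in part, and the part of the stage was not tested. The HI females are of 2004 and the PM females of 2003. By the methods, the PM females were kept in light-proofed tanks after a first reproduction. The HI females were moved to recirculated water under natural photoperiod before ovulation, and no earlier reproduction is stated for them. Year, housing, any difference in spawning history and kind of ovulation control cannot be told apart. In 1 fit over all 28 arrays and 8277 clones, limma called 0 clones between HI poor and HI good eggs and 237 (2.86%) between PM poor and PM good eggs, 74 higher and 163 lower in PM poor eggs. The difference between these differences, HI minus PM, was called for 5 clones (0.0604%), and 1386 (16.7%) had an unadjusted p under 0.05, where the threshold's level corresponds to 414. Across clones the HI and PM differences correlated with r = -0.206, given as a description over 8277 clones that share the same arrays. Of the 318 clones of both fits with an unadjusted p under 0.05 between HI poor and HI good eggs, 90 (28.3%) had the same sign in PM eggs, against 40.8% of all clones. PM poor arrays also had a wider spread of signals (interquartile range 1.63 ± 0.10) than PM good arrays (1.54 ± 0.08). With this spread entered per array as a covariate, 44 clones were called for HI minus PM, including all 5.

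The 5 clones, which have no gene name here, had quality differences of opposite sign in HI and PM eggs. They were picked for HI minus PM, so the opposite signs are a description. All 5 were called between PM poor and PM good eggs (adjusted p from 0.0078 to 0.0172 from limma). None of the 5 was called between HI poor and HI good eggs (adjusted p = 0.996 from limma). Clone tcay0027.n.23 had -0.21, 0.17, -0.12 and -0.29 in HI poor eggs (HI-1 to HI-4, with no value on HI-5) and 0.59, 0.20, 0.47, 0.62 and 0.26 in HI good eggs. It had a lowest, median and highest log2 signal of -0.18, 0.35 and 0.81 in PM poor eggs and -0.12, -0.08, -0.42 and -0.43 in PM good eggs (PM-11 to PM-14). The values of HI-1 to HI-4 were below all HI good values, while 8 of 9 PM poor values were above all PM good values. The HI difference was -0.54, the PM difference 0.62, and HI minus PM was -1.17 (standard error 0.21, adjusted p = 0.0291 from limma). With missing values set at the array minimum, HI minus PM was -1.69 and was not called (adjusted p = 0.115 from limma). The call thus depended on how the missing value was handled.

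Clone tcay0025.i.19 had -1.26, -1.12, -0.62, -1.19 and -0.79 in HI poor eggs and -0.42, -0.73, -0.95, -0.66 and -0.72 in HI good eggs. In PM poor eggs it had a lowest, median and highest value of -0.66, -0.48 and -0.11, and in PM good eggs -0.88, -1.13, -0.95 and -1.32. The HI groups overlapped and the PM groups did not. HI minus PM was -0.95 (standard error 0.175, adjusted p = 0.0291), from an HI difference of -0.30 and a PM difference of 0.65.

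For the remaining 3 clones the differences were smaller. Clone tcbk0011.l.05 had -1.56, -1.64, -1.61, -1.87 and -1.46 in HI poor eggs and -1.39, -1.26, -1.46, -1.52 and -1.38 in HI good eggs, with an HI difference of -0.22, a PM difference of 0.46 and HI minus PM of -0.68 (adjusted p = 0.0446). Clone 1RT96F15_B_C08 had -0.99, -0.90, -0.97, -0.75 and -0.86 in HI poor eggs and -1.07, -1.31, -1.17, -1.21 and -1.06 in HI good eggs, with an HI difference of 0.27, a PM difference of -0.62 and HI minus PM of 0.89 (adjusted p = 0.0446). The HI groups overlapped for the first of these and did not for the second. Clone 1RT88F05_B_C03 had -0.29, -0.48, -0.26, -0.27 and -0.36 in HI poor eggs and -0.55, -0.60, -0.40, -0.46 and -0.75 in HI good eggs. Its HI difference was 0.22, its PM difference -0.44 and HI minus PM 0.66 (adjusted p = 0.0446), and HI-2 lay within the HI good range.

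The sizes of these differences moved little when 1 of the 23 HI and PM arrays was left out, while the calls often did not hold. HI minus PM ran from -1.26 to -1.11 for tcay0027.n.23, from -1.04 to -0.86 for tcay0025.i.19, from -0.74 to -0.62 for tcbk0011.l.05, from 0.84 to 0.98 for 1RT96F15_B_C08 and from 0.59 to 0.70 for 1RT88F05_B_C03. They were called in 18, 17, 6, 9 and 8 of the 23 fits, in the same order. Without HI-1, HI-4, HI-7, HI-10 or HI-11, 0 clones were called for HI minus PM (1060 to 1314 at an unadjusted p under 0.05 in limma), and without HI-5 there were 53. Without HI-9, PM-1 or PM-8 there were 16, 17 and 15, without PM-13 or PM-14 there were 8 and 9, and without PM-2, PM-3, PM-5, PM-7, PM-9, PM-11 or PM-12 there were 2. The labels give PM-4 and N-1 the same female number, and without both arrays, chosen after the data were examined, 4 clones were called, 3 of them among the 5.

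**Figure D4:**
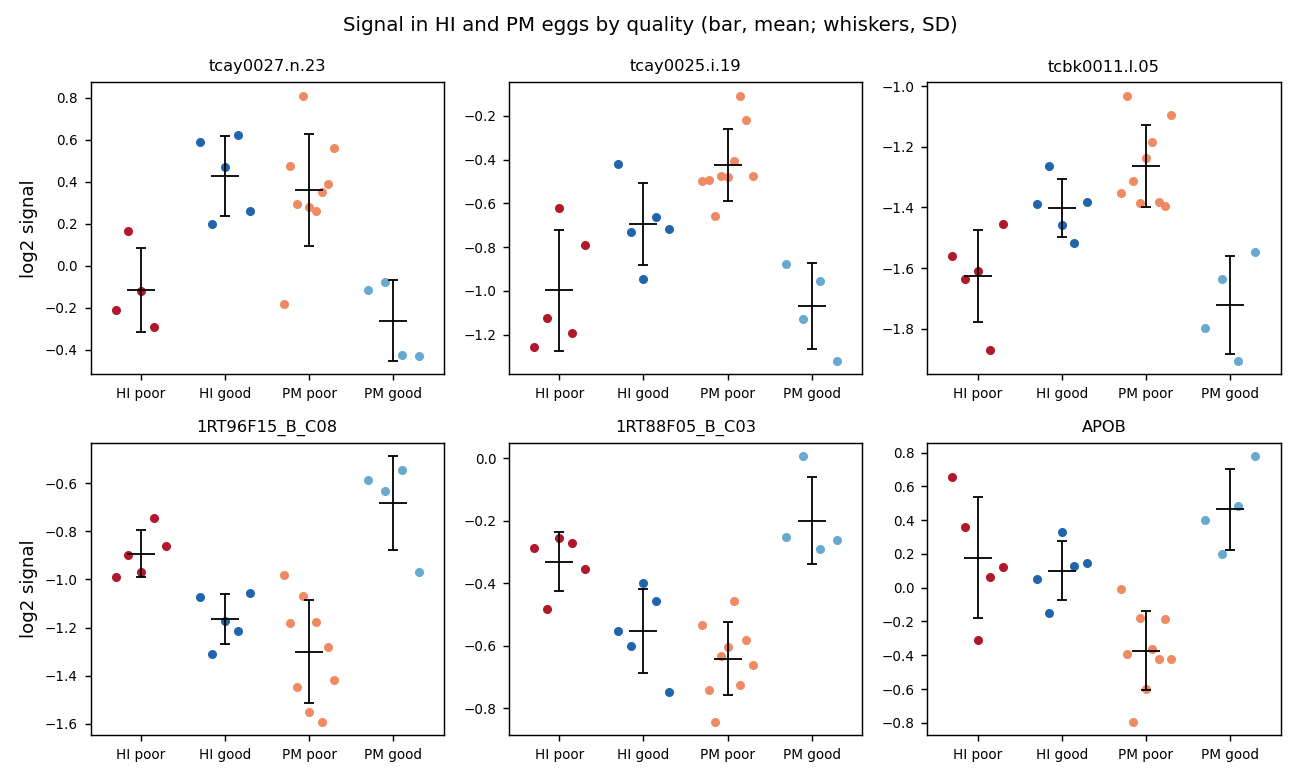
Log2 signal of the 5 clones called for HI minus PM, and of APOB, on each array of the HI poor, HI good, PM poor and PM good groups, with mean and SD. The HI and PM quality differences had opposite signs for the 5 clones, which were picked for HI minus PM. For APOB the HI difference was 0.08 and changed sign without HI-1. HI minus PM ran from -1.17 to 0.92.

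APOB, the large apolipoprotein of low density lipoproteins and a relative of vitellogenin, was the named clone with the largest difference between HI and PM eggs. It had 0.66, 0.36, -0.31, 0.07 and 0.12 in HI poor eggs and 0.05, -0.15, 0.33, 0.13 and 0.14 in HI good eggs. HI-1 was highest and HI-3 lowest, so that the HI poor females spread to both sides of the HI good females. Its HI difference was 0.08 (standard error 0.157, 95% confidence interval -0.25 to 0.41), and it turned to -0.04 without HI-1. In PM poor eggs APOB had a lowest, median and highest signal of -0.79, -0.39 and -0.01, and in PM good eggs 0.40, 0.20, 0.48 and 0.78. The PM groups did not overlap, and APOB fell by 0.84 in PM poor relative to PM good eggs (adjusted p = 0.00547 from limma). APOB is from the egg quality list, which the study chose on these PM arrays, among others, so its PM difference is not independent evidence. HI minus PM was 0.92 (standard error 0.212, adjusted p = 0.0719 from limma), which did not pass, and the adjusted p was under 0.05 in 4 of 29 alternatives, with 0.0427 as the lowest.

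Other named clones also differed in value between HI and PM eggs without passing the test of that difference. HCFC1 had an HI difference of -0.28 and a PM difference of 0.23 (HI minus PM -0.51, adjusted p = 0.109), and HSPA9B had -0.18 and 0.38 (HI minus PM -0.56, adjusted p = 0.228). NEK1 and DUSP24, both called in PM eggs with -0.48 and -0.63 (adjusted p = 0.0475 and 0.0246 from limma), had -0.16 and -0.22 in HI eggs (HI minus PM 0.32 and 0.41, adjusted p = 0.41 and 0.351). Both are from the egg quality list, so their PM calls are not independent evidence either. PHB2 had 0.21 in HI and 0.17 in PM eggs, with HI minus PM of 0.04 (adjusted p = 0.923). The HI difference of VWF was -0.35 and its PM difference 0.07 (HI minus PM -0.42, adjusted p = 0.297). Over the named clones of both fits, the median of HI minus PM was 0.05, against -0.04 over all clones.

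**Figure D5:**
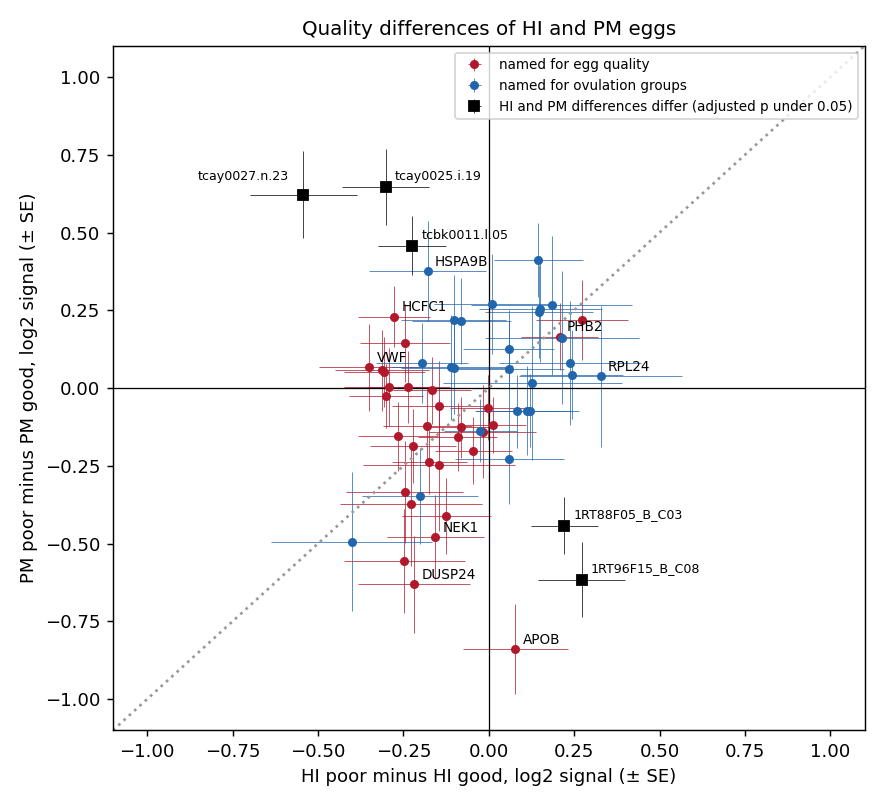
Difference in log2 signal of PM poor minus PM good eggs against that of HI poor minus HI good eggs for named clones (red, egg quality list; blue, ovulation list) and the 5 clones called for HI minus PM (black), each with its standard error. The dotted line marks equal differences, and APOB lies at 0.08 in HI eggs and -0.84 in PM eggs.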

How the data were processed

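RNA of unfertilized eggs of single rainbow trout females was hybridised to nylon arrays of cDNA clones spotted in duplicate. The deposited values are intensities on a linear scale. The authors scanned them on phosphor-imaging plates, dropped spots whose vector oligonucleotide signal was low, used that signal to adjust for the DNA in each spot, and set the result relative to the array median. The sources used here do not say how duplicates were combined or what a value of 0 marks. Of 9216 rows, 193 controls were left out and 9023 clones kept. Log2 signal of values above 0 was used with no pseudocount and no further scaling.

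Clones with at least 3 values in each group were compared with limma 3.58.1 in R 4.3.3 (lmFit, eBayes, Benjamini-Hochberg over all clones tested, adjusted p under 0.05) on the 10 HI arrays. HI and PM differences were compared in 1 limma fit of 6 groups over 28 arrays. The interquartile range and the number of clones above 0 were tested by exact permutation, adjusted over both measures. The percentages of eyed embryos and malformations, planned for the same test, were left untested because they are bound up with the choice of the females. Confidence intervals are at 95%. The code was tested on simulated data. The SAM software named in the methods rests on regroupings of the samples and was not run. Groups came from the sample labels. Figures were drawn with matplotlib 3.10.9.

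The females, the clone lists and the tests were chosen with earlier results of these data known. Named were the clones of the study's tables by role, with array values for the clone of smallest p in each list, those at an unadjusted p under 0.05, PHB2, APOC1, RPL24 and APOB, any clone past the adjusted threshold, and the 2 clones in each direction with the smallest p and values on all 10 arrays. Gene symbols are those of the study, and clone sequences were not used here. Some clones are not reported here. Alternatives covered filters, zeros, normalization, variance models, other measures of quality and leaving out each array.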

Additional observations from a re-analysis of the deposited data

Results flagged for a closer look

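Between HI and PM eggs, 5 clones differed in the difference of poor minus good quality, by limma's test of HI minus PM. The values of HI minus PM were -1.17 for tcay0027.n.23, -0.95 for tcay0025.i.19, -0.68 for tcbk0011.l.05, 0.89 for 1RT96F15_B_C08 and 0.66 for 1RT88F05_B_C03. Year, housing, any difference in spawning history and kind of ovulation control cannot be told apart in this comparison, and the poor groups differed in part in stage of loss.

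Among the clones shown by array and 4 measures of the females and arrays, 1 of 52 groups of 4 or 5 females held a female far from the others. It was the percentage of malformations in HI good females, 8.1 in HI-7 with 2.2 in the nearest female. About 1 in 20 groups, here 3, would be singled out by chance.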

How the results depend on the processing

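The comparison of HI poor with HI good eggs gave 0 called clones in limma (324 at an unadjusted p under 0.05) and 0 under 26 of 27 alternatives. Leaving out 1 array gave 0 to 1 calls, 192 to 483 clones at an unadjusted p under 0.05 and 25 to 46.9% of these higher in HI poor eggs. The unadjusted count was 610 for the slope on eyed embryos (smallest adjusted p 0.0543), 203 for the exact Mann-Whitney test, whose smallest possible p is 0.00794, and 544 with only HI-1 and HI-2 as poor, chosen after the data were examined. The share higher was 47.5% after quantile normalization and 54.5% without HI-1 and HI-2. Of 56 named clones, 34 kept their sign under every alternative that gave them a signed value and 22 did not, with 0 calls. Among those described, APOC1 turned to -0.019 for the slope on eyed embryos and ran from -0.093 to 0.30 without 1 array, APOB to -0.14 without HI-1 and HI-2 and from -0.042 to 0.20 without 1 array, DUSP24 to 0.016 for the slope on eyed embryos and HSPA9B to 0.0026 without HI-1 and HI-2. Slopes are per 10 points, turned so that a positive one is higher at low quality. For HI minus PM, 5 calls became 9 after quantile normalization, of which 4 were among the 5. Clone tcbk0011.l.05 was not called there (adjusted p = 0.0551 from limma). The calls were 44 with the interquartile range as a covariate, 0 for clones on all 28 arrays (1319 at an unadjusted p under 0.05), and 0 to 53 without 1 array. With only the 23 arrays compared, chosen after the data were examined, there were 3. Where not stated above, the cause was not tested. No paired analysis was possible because the HI poor females carry the numbers 1 to 5 and the HI good females 7 to 11, and the numbers rank egg quality. With 5 arrays a group, the median reach of a clone's unadjusted interval was about 0.29 on the log2 scale. Differences under that were not resolved for a clone of median precision. For some clones with narrower intervals, such as TF at -0.27, the unadjusted interval excluded 0. After adjustment larger differences were not called either, up to -0.85 for tcaj0001.g.11 (adjusted p = 0.996 from limma).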
